A study of Mus musculus with 2 samples.

Results

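The enzymes that make serine and pass its carbon to folate were examined in colon tumours of mice, as 9 genes out of the 35529 in the deposited expression table. They were chosen by symbol: Phgdh, Psat1 and Psph for serine synthesis, Shmt1 and Shmt2 for the transfer of carbon from serine to folate, and Mthfd1, Mthfd2, Mthfd1l and Tyms for the use of that carbon. All 9 symbols had a row, and all 9 were at or above 1 RPKM (reads scaled to the length of the gene and the size of the library) in at least one library. RNA was measured in 2 libraries. The AOM+DSS library was made from adenomas that formed in the colon of C57BL/6 wild-type mice given azoxymethane, a carcinogen, and dextran sodium sulfate, which injures the colonic lining. The control library came from normal colon tissue of C57BL/6 wild-type mice that received neither agent. Each library is a pool of RNA from 6 individuals, so the groups are called the adenoma pool and the control pool. The sources used here give no ages, doses or times. Because each group is 1 pooled library, no difference has a replicate check and no test between the conditions can be made. Intervals are 95% and cover counting error only.

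Serine is made from the glycolytic intermediate 3-phosphoglycerate in a short chain of reactions, run in order by Phgdh, Psat1 and Psph. Serine hydroxymethyltransferases then move a carbon unit from serine to tetrahydrofolate, leaving glycine. Folate enzymes of the cytosol and the mitochondrion interconvert the carrier's oxidation states and supply carbon for purines, thymidylate and methionine. The pathway is best known for its role in dividing cells, including cells of the renewing crypts of the intestine and many tumours.

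The enzymes did not differ in one direction. The serine synthesis genes and Tyms were higher in the adenoma pool, the cytosolic genes Shmt1 and Mthfd1 were lower, and the mitochondrial genes were divided. Counted by level, 5 of the 9 were higher and 4 lower in the adenoma pool. Differences between pools are given as log2((adenoma RPKM + 1)/(control RPKM + 1)), a scale that understates changes of low genes. Counts of genes 2-fold or more apart are made on this scale, while folds with an interval are plain RPKM ratios, so a low gene can have a ratio over 2 and not be counted. On the log2 scale 2 of 9 (22.2%) were 2-fold or more higher, Phgdh and Psat1, as were 14.0% of the 16517 genes that reached 1 RPKM in one pool or both (10.4% among mRNA genes). None of the 9 was 2-fold or more lower, where 11.0% of all genes were (13.1% among mRNA genes). At 1.5-fold 4 of the 9 were higher, where 25.7% of all genes were, and 3 were lower, where 24.6% were. At 4-fold 0 were higher, where 2.02% of all genes were, and 0 lower, where 1.08% were. The median difference was 0.32 over the 9 enzymes and -0.020 over all genes. With so few genes, counts of this size do not set the enzymes apart from the rest of the table. The summed level was close in the pools, at 118 RPKM in the adenoma pool and 116 RPKM in the control pool.

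**Figure D1:**
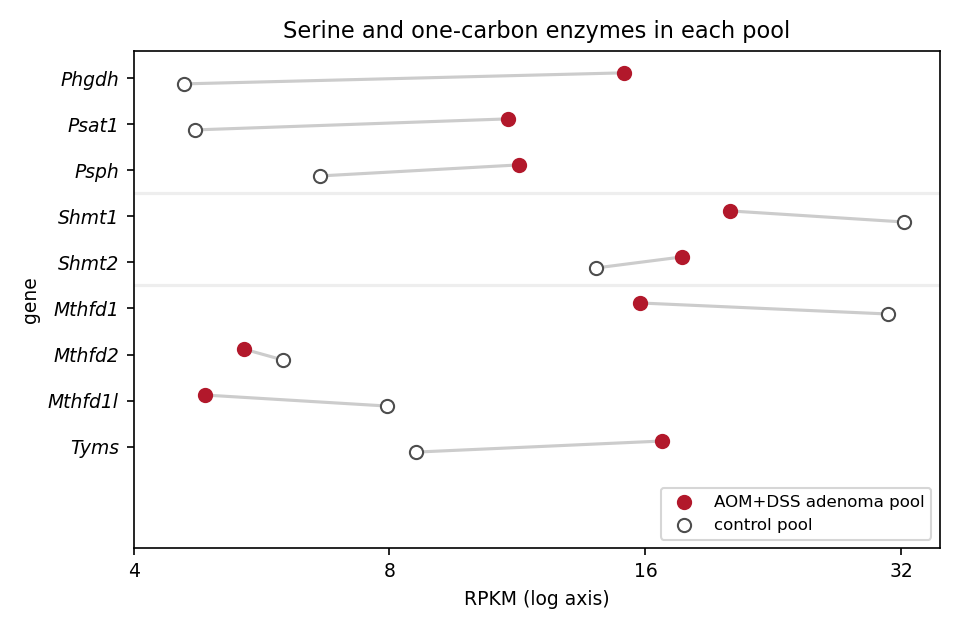
Level of each enzyme gene (RPKM, log axis) in the AOM+DSS adenoma pool (filled points) and the control pool (open points), with 1 library per group and no error bars. Phgdh, Psat1, Psph, Shmt2 and Tyms lie to the right in the adenoma pool, and Shmt1, Mthfd1, Mthfd2 and Mthfd1l to the left.

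The authors' table gives no positions. In GENCODE M21 on GRCm38 Phgdh lies on chromosome 3 (98313170 to 98339990), Psat1 on 19 (15904678 to 15947337), Psph on 5 (129765558 to 129787449), Shmt1 on 11 (60788104 to 60811718) and Shmt2 on 10 (127517123 to 127522444), all on the minus strand. Mthfd1 lies on 12 (76255298 to 76319803, plus), Mthfd2 on 6 (83305691 to 83325908, minus), Mthfd1l on 10 (3973118 to 4167081, plus) and Tyms on 5 (30058202 to 30073617, minus).

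Phgdh, the dehydrogenase that commits carbon to serine, had the greatest difference of the 9. It stood at 15.1 RPKM in the adenoma pool and 4.58 RPKM in the control pool, 3.29-fold higher (2.86 to 3.79). Its log2 value of 1.53 lay at percentile 94.8 of all genes past the filter. Psat1, the aminotransferase of the next step, was at 11.0 RPKM in the adenoma pool and 4.73 RPKM in the control pool, 2.33-fold higher (2.07 to 2.64). Psph, the phosphatase that releases free serine, was at 11.4 RPKM in the adenoma pool and 6.63 RPKM in the control pool, 1.71-fold higher (1.55 to 1.90). As listed, the difference was greatest at the first reaction and smallest at the last, but this order rests on single values. The rows of Phgdh and Psph are uncertain for the reasons given below. With the shortest coding transcript as gene length, the intervals of neighbouring steps overlapped. They were then 2.47 to 4.45 for Phgdh, 1.80 to 3.05 for Psat1 and 1.34 to 2.20 for Psph. Together the 3 genes summed to 37.5 RPKM in the adenoma pool and 15.9 RPKM in the control pool. In the control pool Phgdh and Psat1 were the lowest of the 9 enzymes. In the adenoma pool Phgdh took place 5, close behind Mthfd1, while Psat1 was in place 7.

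The Phgdh row shares sequence with many pseudogenes. Of the 50-base stretches in its longest coding transcript in GENCODE M21, 63.1% also occur in transcripts of other genes, 23 in number, of which 19 are pseudogenes. Among these, 16 had a row in the table, and Gm7901 was the 1 copy at or above 1 RPKM in both pools. It is also the closest copy. It holds 50.6% of the stretches and was listed above Phgdh itself, at 21.2 RPKM in the adenoma pool and 6.85 RPKM in the control pool, 3.09-fold higher. Of the others, 5 reached 1 RPKM in the adenoma pool alone, so the filter itself fixed their direction, and 10 were under 1 RPKM in both pools. The next closest, Gm9347, was at 3.11 RPKM in the adenoma pool and 0.893 RPKM in the control pool. Over all 16 rows 15 were listed higher in the adenoma pool and 1, Gm8588, lower. The sources used here do not say how the authors assigned reads that match several places, so transcripts of Phgdh and of its copies cannot be told apart and the level of Phgdh is uncertain. Rows that may share reads with Phgdh are not separate measurements of its direction.

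**Figure D2:**
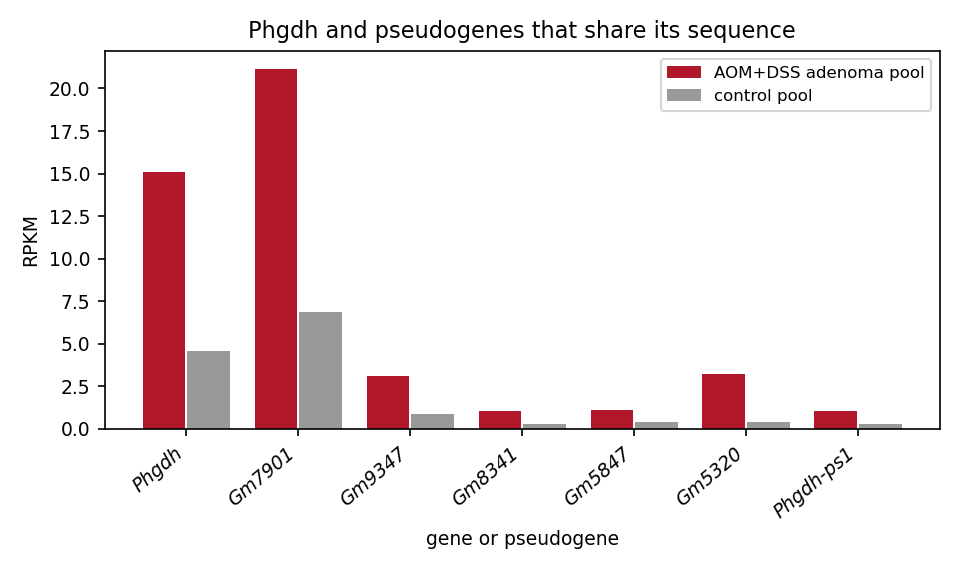
RPKM of Phgdh and of the 6 pseudogenes that share at least one 50-base stretch with it and reached 1 RPKM, in the adenoma pool (red, left bars) and the control pool (grey, right bars), ordered after Phgdh by the share of stretches in common. Gm7901 exceeds Phgdh in both pools, and the other 5 pseudogenes are below 1 RPKM in the control pool, having passed the filter through the adenoma pool.

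Psph has another kind of uncertainty. In GENCODE M21 its exons overlap those of Cct6a, a chaperonin subunit gene on the opposite strand, and 23.9% of the 50-base stretches of its longest coding transcript occur in Cct6a transcripts. Cct6a was far more abundant, at 131 RPKM in the adenoma pool and 92.0 RPKM in the control pool. The sources used here do not say whether counting used the strand, so some reads in the Psph row may belong to Cct6a. Psat1 shared 1.21% of its stretches, all with 1 pseudogene.

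The start regions of the 4 enzymes that were at least 1.5-fold higher are shown because these genes differed in the same direction. Each line gives the 250 bases before an annotated start (RefSeq, GRCm38.p6, all on the minus strand), with capitals for matches to any of the 4 motifs described after the lines. Psat1 has 2 annotated starts.
Phgdh, chr3:98339970-98340219: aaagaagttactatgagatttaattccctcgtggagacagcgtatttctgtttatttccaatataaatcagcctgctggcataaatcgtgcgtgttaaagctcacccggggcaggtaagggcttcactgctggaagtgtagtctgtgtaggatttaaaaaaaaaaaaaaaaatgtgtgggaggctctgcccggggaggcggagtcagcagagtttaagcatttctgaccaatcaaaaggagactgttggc
Psat1, chr19:15925060-15925309: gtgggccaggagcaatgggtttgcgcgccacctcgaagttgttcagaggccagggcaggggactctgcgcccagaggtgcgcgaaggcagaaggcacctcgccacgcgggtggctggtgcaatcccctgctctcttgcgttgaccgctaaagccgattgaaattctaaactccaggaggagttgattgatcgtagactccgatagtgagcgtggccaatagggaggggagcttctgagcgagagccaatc
Psat1, chr19:15924623-15924872: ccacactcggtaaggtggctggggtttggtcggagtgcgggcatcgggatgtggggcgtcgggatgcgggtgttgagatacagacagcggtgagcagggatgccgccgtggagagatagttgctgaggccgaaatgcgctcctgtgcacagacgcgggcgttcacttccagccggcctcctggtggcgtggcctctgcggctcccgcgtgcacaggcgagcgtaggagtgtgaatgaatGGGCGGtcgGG
Psph, chr5:129787254-129787503: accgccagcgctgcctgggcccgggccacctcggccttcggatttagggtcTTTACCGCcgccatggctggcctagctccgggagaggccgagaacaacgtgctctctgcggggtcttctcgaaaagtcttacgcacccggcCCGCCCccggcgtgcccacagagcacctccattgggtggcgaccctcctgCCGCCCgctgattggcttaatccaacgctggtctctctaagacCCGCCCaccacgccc
Tyms, chr5:30073626-30073875: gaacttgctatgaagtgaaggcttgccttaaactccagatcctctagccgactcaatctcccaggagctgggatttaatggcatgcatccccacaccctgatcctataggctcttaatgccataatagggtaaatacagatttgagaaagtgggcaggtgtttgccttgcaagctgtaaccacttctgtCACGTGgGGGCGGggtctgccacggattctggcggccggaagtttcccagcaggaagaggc
Motifs were searched on both strands from 250 bases before to 50 after each start. TGATGNAA, the core of the element read by the stress factor ATF4, occurred in none of the 9 enzymes' windows. It occurred in 3.97% of all 32851 windows around annotated starts, of which a gene can have several. CACGTG, the E-box bound by MYC and related factors, occurred for 1 enzyme, Tyms, and in 7.15% of all windows. TTTNNCGC, an E2F-type sequence, occurred for 3 enzymes, Psph, Shmt2 and Tyms, and in 5.17% of all windows. For Shmt2 and Tyms it lay after the start, outside the stretch shown. GGGCGG, the GC box, occurred for 6 enzymes and in 35.7% of all windows. The motifs did not overlap each other in the lines shown, and the second GC box in the second Psat1 line runs past the start. Phgdh had no match to any of the 4. A match is a string of letters and not a site of binding, and its absence refers to this window.

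The serine hydroxymethyltransferases went opposite ways. Shmt1, the cytosolic enzyme, was the most abundant of the 9 in each pool, at 20.1 RPKM in the adenoma pool and 32.2 RPKM in the control pool, 1.60-fold lower (1.51 to 1.70). Shmt2, the mitochondrial enzyme, was at 17.7 RPKM in the adenoma pool and 14.0 RPKM in the control pool, 1.26-fold higher (1.16 to 1.37), and its log2 value of 0.32 became -0.056 with the libraries scaled to equal sums. A ratio of genes within a pool does not depend on such scaling. It can depend on the trend over transcript length described below, for which the ratios within a pool were not adjusted. There were 0.878 units of Shmt2 RPKM for each unit of Shmt1 RPKM in the adenoma pool and 0.434 units in the control pool, so that this ratio was 2.02-fold higher in the adenoma pool. Shmt2 shares 1.83% of its 50-base stretches with 1 pseudogene. Shmt1 shares 4.81% with Smcr8, a gene that overlaps it on the opposite strand.

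Mthfd1, the cytosolic trifunctional enzyme that interconverts folate one-carbon units, had the greatest difference among the lower genes. It was at 15.8 RPKM in the adenoma pool and 30.9 RPKM in the control pool, 1.96-fold lower (1.84 to 2.08), with a log2 value of -0.93, just short of 2-fold. Shmt1 and Mthfd1 together summed to 35.9 RPKM in the adenoma pool and 63.1 RPKM in the control pool. Phgdh and Mthfd1, which stood at near-equal levels in the adenoma pool with 0.957 units of Phgdh RPKM per unit of Mthfd1 RPKM, were far apart in the control pool, with 0.148 units. This comparison rests on the uncertain Phgdh row and was not adjusted for transcript length.

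Mthfd2 and Mthfd1l, both mitochondrial, were listed lower in the adenoma pool, unlike Shmt2. Mthfd2, a mitochondrial dehydrogenase and cyclohydrolase often described as high in tumours, was at 5.39 RPKM in the adenoma pool and 6.00 RPKM in the control pool. The fold of adenoma over control was 0.898 (0.776 to 1.04), and this was the 1 interval of the 9 that spanned 1. Mthfd2's log2 value of -0.13 turned to 0.05 when the libraries were scaled by the median ratio of mRNA genes. Mthfd1l, the mitochondrial enzyme that releases formate, was at 4.85 RPKM in the adenoma pool and 7.96 RPKM in the control pool, 1.64-fold lower (1.48 to 1.82). With Shmt2 slightly higher and Mthfd1l lower, the sum of Shmt2, Mthfd2 and Mthfd1l was 27.9 RPKM in each pool. Mthfd1, Mthfd2 and Mthfd1l shared no 50-base stretch with any other gene.

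Tyms, thymidylate synthase, which uses a folate carbon to make the DNA precursor dTMP, was at 16.7 RPKM in the adenoma pool and 8.59 RPKM in the control pool, 1.95-fold higher (1.80 to 2.10). Its log2 value was 0.88. In the adenoma pool there were 1.06 units of Tyms RPKM per unit of Mthfd1 RPKM, against 0.278 units in the control pool. Of its 50-base stretches 11.0% also occur in transcripts of other genes, 137 in number, of which 7 are pseudogenes. The pseudogene Tyms-ps holds 4.34% of the stretches and was listed at 3.39 RPKM in the adenoma pool and 1.47 RPKM in the control pool.

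The pools differed in scale and in a trend over transcript length, which bears on differences of this size. RPKM summed to 828667 in the adenoma pool and 629215 in the control pool, and scaling them to equal sums shifts log2 values by up to -0.40 and puts the median of all genes at -0.36. On that scale Phgdh (1.16) stayed 2-fold or more higher, Psat1 (0.71) did not, and Mthfd1 (-1.30) and Shmt1 (-1.03) were 2-fold or more lower. Over all genes, 7.47% were then 2-fold or more higher and 19.5% 2-fold or more lower. Across mRNA genes the adenoma pool was higher for short transcripts, with a median log2 value of 0.79 in the 10% with the shortest and -0.76 in the 10% with the longest. After that trend was subtracted, Phgdh (1.19) and Tyms (1.03) were 2-fold or more higher, where 5.68% of genes were, Psat1 was at 0.97, and no enzyme was 2-fold or more lower, where 11.3% of genes were. Phgdh then lay at percentile 96.1 of all genes with a length, Tyms at 94.7 and Psat1 at 94.0. Mthfd1 lay at percentile 13.8 and Shmt1 at 19.9.

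**Figure D3:**
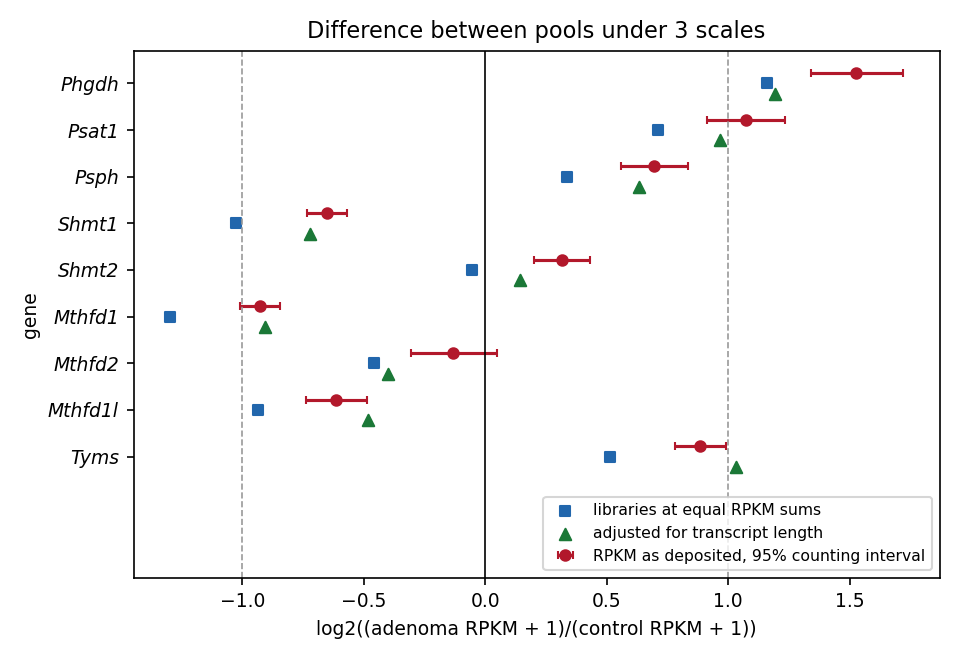
Difference between the adenoma pool and the control pool for each enzyme, as log2((adenoma RPKM + 1)/(control RPKM + 1)), under 3 scales: as deposited (circles, bars are 95% counting intervals), with libraries at equal sums (squares) and adjusted for transcript length (triangles). Dashed lines mark 2-fold. Phgdh lies beyond 2-fold on each of these scales, and Shmt2 crosses 0 at equal sums.

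**Figure D4:**
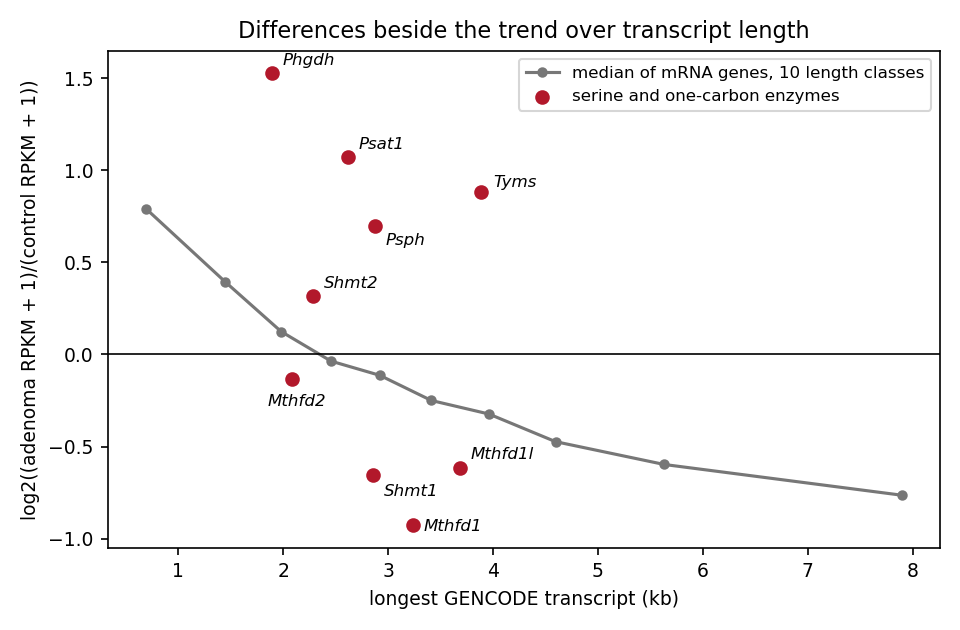
Log2 difference against the longest GENCODE transcript (kb) for the 9 enzymes (red) and the median of mRNA genes in 10 classes of equal size by length (grey line). Phgdh, Psat1, Psph, Shmt2 and Tyms lie above the line, and Mthfd2, Shmt1, Mthfd1 and Mthfd1l below it.

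Other genes of folate metabolism were counted on the same scales. Of 9 other folate one-carbon enzymes past the filter, 1 was 2-fold or more higher, where 14.0% of all genes were. On the lower side there were 0, where 11.0% of all genes were. The counts were 0 higher and 1 lower at equal sums, and 2 higher and 0 lower after length adjustment. The median was 0.0030, or -0.38 at equal sums and 0.15 after length adjustment. The gene counted as higher on the deposited scale was Mthfd2l, the mitochondrial relative of Mthfd2. It was at 4.32 RPKM in the adenoma pool and 1.34 RPKM in the control pool, 3.24-fold higher (2.72 to 3.87). Its log2 value was 1.19, or 0.87 at equal sums. The most abundant, Aldh1l1, which removes formyl groups from folate, was at 55.8 RPKM in the adenoma pool and 58.1 RPKM in the control pool. Of 6 genes of folate uptake and polyglutamation 0 were 2-fold or more higher and 1 lower, and the median was -0.37, or -0.67 at equal sums and -0.47 after length adjustment. That gene was Folr2, a folate receptor of macrophages, at 3.57 RPKM in the adenoma pool and 8.37 RPKM in the control pool, 2.34-fold lower (1.91 to 2.88). The most abundant was Ggh, which trims glutamates from stored folate, at 126 RPKM in the adenoma pool and 225 RPKM in the control pool, 1.78-fold lower (1.73 to 1.83). Ggh joined Folr2 as 2-fold or more lower at equal sums, with a log2 value of -1.22, and after length adjustment, with -1.14. Of 3 glycine cleavage genes past the filter 0 were 2-fold or more apart on the log2 scale. Gldc, also of this system, did not pass, at 0.136 RPKM in the adenoma pool and 0.108 RPKM in the control pool. Amt, the aminomethyltransferase, was at 5.26 RPKM in the adenoma pool and 2.20 RPKM in the control pool, a plain ratio of 2.39 (1.96 to 2.94). Its log2 value of 0.97 was 0.64 at equal sums and 0.70 after length adjustment. The shared subunit Dld was at 28.7 RPKM in the adenoma pool and 33.1 RPKM in the control pool.

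Most carriers of serine and glycine were listed lower in the adenoma pool, 7 of 9. So were 7 of 8 genes listed for serine use and breakdown, called the serine-use list. After length adjustment the medians of both lists lay near that of all genes. Of 9 serine and glycine carriers past the filter 0 were 2-fold or more apart, but the median was -0.67, and the most abundant, the neutral amino acid carrier Slc1a5, was at 25.3 RPKM in the adenoma pool and 42.0 RPKM in the control pool, 1.66-fold lower (1.57 to 1.75). Of 8 genes in the serine-use list 0 were 2-fold or more higher and 1 lower, where 14.0% and 11.0% of all genes were. The median of the list was -0.37. The lower gene was Cth, at 13.7 RPKM in the adenoma pool and 33.4 RPKM in the control pool, 2.44-fold lower (2.24 to 2.65). Cth makes cysteine from cystathionine, a step after the one that uses serine. The sphingolipid synthesis subunit Sptlc2, the most abundant, was 1.59-fold lower (1.53 to 1.65). At equal sums the medians were -0.90 for the carriers and -0.73 for the serine-use list, where that of all genes was -0.36. On that scale 4 carriers and 3 genes of the serine-use list were 2-fold or more lower, where 19.5% of all genes were. After length adjustment the medians were -0.29 for the carriers and -0.22 for the serine-use list, where that of all genes was -0.19. Then 0 carriers and 1 gene of the serine-use list were 2-fold or more lower, where 11.3% of all genes were. Of 7 genes listed for the methionine cycle 1 was 2-fold or more lower, where 11.0% of all genes were, and 0 higher, where 14.0% were. The median was -0.34. The lower gene was Ahcyl2, listed as a relative of Ahcy, at 7.49 RPKM in the adenoma pool and 54.3 RPKM in the control pool, 7.26-fold lower (6.84 to 7.71). Whether Ahcyl2 acts in the cycle was not examined. Ahcy itself, which clears S-adenosylhomocysteine, was 1.47-fold higher (1.39 to 1.54). Of 3 genes of choline and sarcosine breakdown past the filter 1 was 2-fold or more lower, where 11.0% of all genes were, and 0 higher, where 14.0% were. The median was 0.40, or 0.12 at equal sums and 0.67 after length adjustment. The lower gene was Chdh, choline dehydrogenase, 3.16-fold lower (2.97 to 3.37).

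Genes next to Tyms in nucleotide supply were examined as partners of its reaction. Of 8 thymidylate partners past the filter 2 were 2-fold or more higher, where 14.0% of all genes were, and 0 lower, where 11.0% were. The median was 0.18, or -0.17 at equal sums. Dctpp1, a dCTP pyrophosphatase, was at 98.1 RPKM in the adenoma pool and 29.3 RPKM in the control pool, 3.35-fold higher (3.06 to 3.67). Dtymk, the kinase that acts on the product of Tyms, was at 77.2 RPKM in the adenoma pool and 32.0 RPKM in the control pool, 2.41-fold higher (2.24 to 2.60). Both have short transcripts, and after length adjustment neither was 2-fold apart. Dtymk was also under 2-fold at equal sums, with a log2 value of 0.85. Of 16 proliferation markers 1 was 2-fold or more higher and 0 lower, again beside 14.0% and 11.0% of all genes. The median was 0.16, or -0.20 at equal sums. By level 11 of the 16 were listed higher and 5 lower. The kinase Cdk1 was 2.39-fold higher (2.25 to 2.54), with a log2 value of 1.19, or 0.81 at equal sums. The replication clamp Pcna, the most abundant, was 1.65-fold higher (1.57 to 1.74). Its log2 value of 0.71 was 0.32 at equal sums and 0.19 after length adjustment. Among the lower markers Mki67 was 1.71-fold lower (1.62 to 1.79). Its log2 value of -0.70 was -1.05 at equal sums and -0.09 after length adjustment.

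The transcription factor ATF4 is known to induce Phgdh, Psat1, Shmt2 and Mthfd2 when amino acids are short. Atf4 mRNA was at 53.6 RPKM in the adenoma pool and 57.6 RPKM in the control pool, although this factor is controlled largely by translation. Of 11 genes of its pathway past the filter 1 was 2-fold or more higher and 0 lower, where 14.0% and 11.0% of all genes were. At equal sums 1 was higher and 1 lower, where 7.47% and 19.5% of all genes were. After length adjustment 1 was higher and 1 lower, where 5.68% and 11.3% were. The median was -0.10, or -0.49 at equal sums and -0.25 after length adjustment. The higher one was Pycr1, a mitochondrial enzyme of proline synthesis, at 14.4 RPKM in the adenoma pool and 1.07 RPKM in the control pool, 13.5-fold higher (10.9 to 16.9), a greater fold than that of any of the 9 serine and one-carbon enzymes. Sesn2, a stress-induced regulator of growth signalling, had a plain ratio 2.67-fold lower (2.21 to 3.26) and a log2 value of -0.96. Of 12 glycolytic genes 0 were 2-fold or more higher and 1 lower, where 14.0% and 11.0% of all genes were. The median was -0.12. At equal sums it was -0.51, with 3 lower, and after length adjustment -0.20, with 1 lower. The row of Gapdh, 1 of the 12, is uncertain, because 82.5% of its 50-base stretches also occur in other genes, mostly pseudogenes. Hexokinase 1, Hk1, was 3.25-fold lower (3.10 to 3.42), and the most abundant, the aldolase Aldoa, was 1.34-fold lower (1.31 to 1.36).

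**Figure D5:**
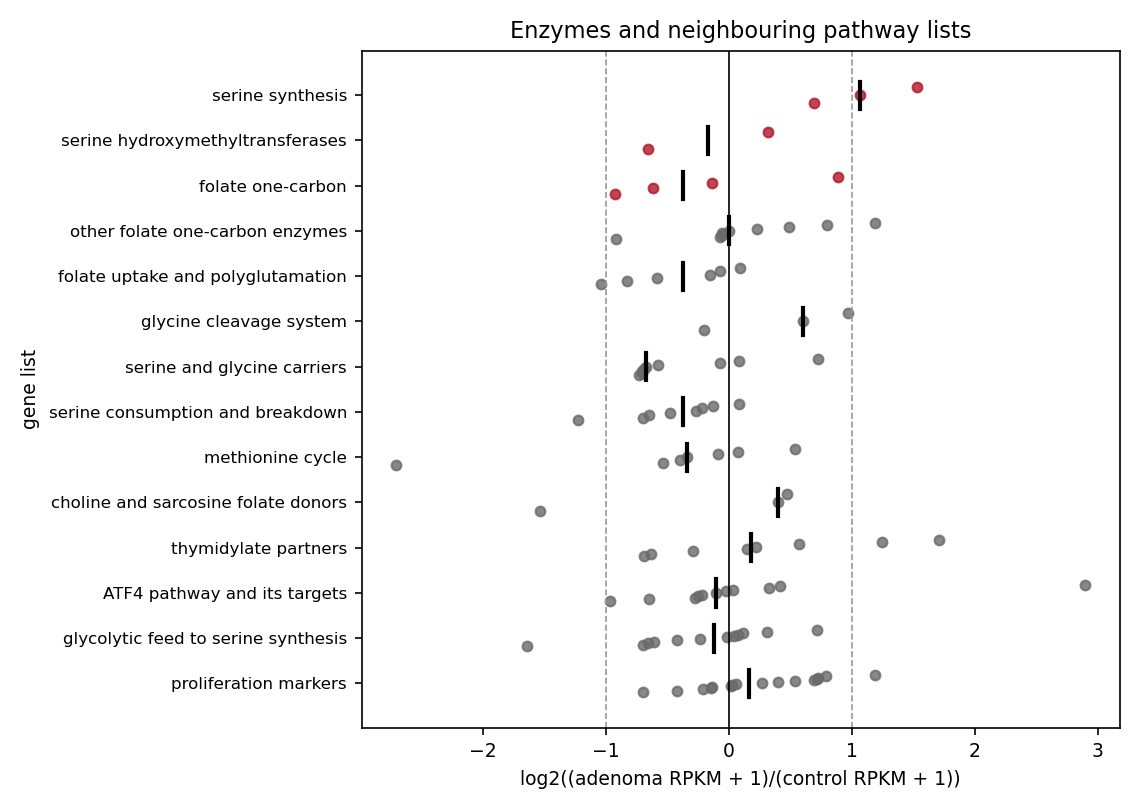
Log2((adenoma RPKM + 1)/(control RPKM + 1)) of each gene at or above 1 RPKM in either pool, by list, with the serine and one-carbon enzymes in red, other lists in grey, the median of each list as a black bar and dashed lines at 2-fold. Among the lists drawn, the 3 serine synthesis genes have the highest median on this scale, 1.07, and the serine and glycine carriers the lowest, -0.67. After length adjustment, not drawn, folate uptake and polyglutamation has a lower median, -0.47, than the carriers, -0.29.

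Marker genes of several cell types differed between the pools. Epithelial markers were abundant in both, summing to 8859 RPKM over 9 genes in the adenoma pool and 12545 RPKM in the control pool, with 1 of 9 higher in the adenoma pool. All 6 markers of mature colonocytes were 2-fold or more lower in the adenoma pool, summing to 442 RPKM there and 2117 RPKM in the control pool. So were 4 of 6 goblet cell markers, where 11.0% of all genes were. Neutrophil markers summed to 306 RPKM over 5 genes in the adenoma pool and 2.35 RPKM in the control pool, almost all of it S100a8 and S100a9, while Csf3r and Cxcr2 were under 1 RPKM in both pools. Macrophage markers were divided. They summed to 388 RPKM over 6 genes in the adenoma pool and 240 RPKM in the control pool, but C1qa and C1qb carried that sum, and Csf1r (-0.62), Adgre1 (-0.46) and Mrc1 (-0.76) had log2 values below 0. The macrophage median was -0.0061, or -0.28 after length adjustment. T cell markers were divided too. They summed to 19.9 RPKM over 6 genes in the adenoma pool and 11.5 RPKM in the control pool, carried by Cd3d and Cd3g, while Cd4 had a log2 value of -0.29 and Cd8a stood at 0.260 RPKM in the adenoma pool and 0.941 RPKM in the control pool. The T cell median was 0.27, or -0.10 after length adjustment. B and plasma cell markers summed to 1149 RPKM over 6 genes in the adenoma pool and 565 RPKM in the control pool, most of it the J chain gene. All 4 endothelial markers were lower in the adenoma pool, summing to 13.4 RPKM there and 29.1 RPKM in the control pool. Fibroblast markers summed to 434 RPKM over 6 genes in the adenoma pool and 359 RPKM in the control pool, with 2 of 6 higher. Smooth muscle markers summed to 1769 RPKM over 6 genes in the adenoma pool and 2127 RPKM in the control pool. Markers of enteric neurons and glia summed to 11.9 RPKM over 6 genes in the adenoma pool and 16.0 RPKM in the control pool. No marker was listed at 0 in both pools. The part of these differences in the levels of the serine and one-carbon enzymes was not tested, and in whole tissue fewer cells of a type and less RNA per cell cannot be told apart.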

How the data were processed

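RNA was extracted with Trizol, and the authors deposited 1 table of RPKM values with 1 column per pool, per the file headers. The submitters' processing notes name the build GRCh37, a human assembly, although the symbols are those of mouse. The sources used here name no aligner, counting method or annotation. The read totals behind the RPKM, worked out from short RNA genes (microRNAs and snoRNAs) with a length in RefSeq, were 33174626 for the adenoma pool and 29548883 for the control pool. With them 72.0% of such genes in the adenoma pool and 70.9% in the control pool were whole reads to within 0.01. The totals were set by taking the most common value among these same genes as 1 read. These shares are therefore not a separate check of the totals. Approximate reads per gene used the longest GENCODE M21 transcript, found for 93.9% of genes past the filter. They were 373 to 2154 for the 9 enzymes in the adenoma pool and 256 to 2959 in the control pool. The authors' lengths may differ, so the exact (Clopper-Pearson) 95% intervals of RPKM ratios are approximate.

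Log2 differences used a pseudocount of 1 RPKM and genes that reached 1 RPKM in one pool or both. Folds are plain RPKM ratios. The length adjustment subtracted the median over 20 length bins of mRNA genes and added back their overall median. Genes outside the 9 were named where they were the most abundant of their list or 2-fold or more apart. Pseudogenes, overlapping genes, Amt, Gapdh, Gldc, Mki67 and Sesn2 were named in addition, after their values were seen. A planned comparison of protein sequences was not made. The enzymes and lists were chosen with earlier results of these data known. Python 3.11.15, scipy 1.17.1 and pandas 2.3.3 were used, and the steps were tested on simulated data.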

Additional observations from a re-analysis of the deposited data

How the results depend on the processing

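Of the 9 enzymes, the 2 2-fold or more higher and 0 lower became 3 higher, with Tyms added, under scaling by the median ratio of mRNA genes and under length and GC adjustment, 1 higher with a pseudocount of 5, 1 higher and 2 lower at equal sums, 1 higher and 1 lower with upper-quartile scaling, and 0 higher and 2 lower with equal sums and length adjustment together, a choice added after the data were seen. A 1.5-fold threshold gave 4 higher and 3 lower, where 25.7% and 24.6% of all genes were. A 4-fold threshold gave 0 higher and 0 lower, where 2.02% and 1.08% were. At equal sums 7.47% of all genes were 2-fold or more higher and 19.5% lower. For the other scalings, the GC adjustment, the pseudocount of 5 and the combined steps, such shares were not counted. Each of those settings also changes the values of other genes, so the counts are not results about the enzymes alone. The median of 0.32 was -0.056 at equal sums, 0.52 with scaling by the median ratio of mRNA genes, 0.14 after length adjustment and -0.20 with both steps. Over the 12 alternatives that give a log2 value, 7 of the 9 enzymes kept their direction in each. Not all of the 12 could change a result. Dropping the filter or raising it to 5 RPKM left every value as reported, and another pseudocount cannot change a direction. The counts out of 12 therefore overstate how far the results were checked. The exceptions were Shmt2, in 10 of 12, with values from -0.20 to 0.52, and Mthfd2, in 11 of 12, from -0.69 to 0.05. Phgdh was 2-fold or more higher in 11 of 12, Psat1 in 7 and Tyms, which was under 2-fold as reported, in 3. Mthfd1 was 2-fold or more lower in 3 and Shmt1 in 2. Of 22 counts of genes 2-fold apart in the other pathway lists, 4 moved by over 1.5 times after length adjustment and 11 at equal sums. With the shortest coding transcript as gene length intervals widened, to 2.47 to 4.45 for Phgdh and 1.80 to 3.05 for Psat1, and again 1 of the 9 intervals spanned 1, that of Mthfd2. No paired analysis was possible because each group holds 1 pooled library.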

Other observations

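Mthfd2l and Mthfd2, which catalyse the same mitochondrial step, stood in different proportion in the pools. There were 0.802 units of Mthfd2l RPKM per unit of Mthfd2 RPKM in the adenoma pool and 0.223 units in the control pool. This ratio was chosen after the values were seen and has no replicate check.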
